A study of Homo sapiens with 9 samples.

Results

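UGT2B10, UGT2B11, UGT2B15, UGT2B17 and UGT2B28 are UDP-glucuronosyltransferases of the UGT2B family, and the prostate uses members of this family to clear androgens. They were taken by gene name, with earlier results of these data known, and are 5 of the 37351 genes in the deposited count table. RNA sequencing (RNA-Seq) followed LNCaP cells, a human line derived from a prostate cancer metastasis, for 24 hours after addition of recombinant NRG1, a growth factor that binds the receptor HER3. All cells had been held in medium without serum or calcium for 6 to 12 hours, and the 15 ng/mL NRG1 of the protocol was then present for 0, 12 or 24 hours, with 3 biological replicates per time point. The replicates were wells plated in triplicate from 1 cell line, so the p-values below measure the spread between wells. No NRG1-free libraries at 12 or 24 hours were analysed here, so the ligand and the time in medium cannot be told apart.

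UDP-glucuronosyltransferases sit in the membrane of the endoplasmic reticulum and transfer glucuronic acid from UDP-glucuronic acid to small lipophilic molecules, which makes them soluble and ready for export. UGT2B15 and UGT2B17 are the main androgen-conjugating enzymes of the prostate, acting on dihydrotestosterone and its reduced metabolites, and androgens are known to lower their mRNA in LNCaP cells. UGT2B28 has weaker activity toward androgens and related steroids, UGT2B10 is best known for conjugating nicotine and other amines at nitrogen, and the substrates of UGT2B11 are poorly defined.

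The 5 genes lie in 1 cluster on chromosome 4 that spans 757.9 kb from UGT2B17 to UGT2B28 (GRCh38, GENCODE gene bounds). UGT2B17 (ENSG00000197888.3) occupies positions 68537173 to 68576413 on the minus strand and has 7 exons. UGT2B15 (ENSG00000196620.10) follows 70.2 kb further on, at 68646597 to 68670652, also on the minus strand. UGT2B10 (ENSG00000109181.12) lies at 68815994 to 68832023 on the plus strand. UGT2B11 (ENSG00000213759.10) lies at 69199951 to 69214748 on the minus strand, inside the bounds of RP11-704M14.1, a long noncoding RNA of the opposite strand. UGT2B28 (ENSG00000135226.18) lies at 69280475 to 69295050 on the plus strand. The genes other than UGT2B17 have 6 exons each in the transcripts used here.

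Sequence decides how well reads can be assigned among these copies, so the start of each coding region is shown, which encodes the signal peptide for entry into the endoplasmic reticulum. Each line gives the coding strand of the GRCh38 reference 5′ to 3′, and capitals mark bases that differ from UGT2B15 in the alignment.
UGT2B15: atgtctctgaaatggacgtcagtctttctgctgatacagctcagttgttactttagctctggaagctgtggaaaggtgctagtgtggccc
UGT2B17: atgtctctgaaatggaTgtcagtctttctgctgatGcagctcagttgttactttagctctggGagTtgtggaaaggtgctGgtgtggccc
UGT2B11: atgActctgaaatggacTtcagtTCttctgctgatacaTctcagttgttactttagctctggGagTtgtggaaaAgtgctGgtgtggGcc
UGT2B10: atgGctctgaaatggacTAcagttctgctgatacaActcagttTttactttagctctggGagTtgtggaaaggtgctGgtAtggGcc
UGT2B28: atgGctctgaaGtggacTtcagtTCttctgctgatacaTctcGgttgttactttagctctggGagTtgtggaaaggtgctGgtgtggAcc
UGT2B17 differed from UGT2B15 at 5 of these 90 bases. UGT2B11 and UGT2B10 each differed at 10, with 3 further bases missing from UGT2B10, and UGT2B28 differed at 11. The stretches lie on chromosome 4 at 68670529 to 68670618 (UGT2B15), 68568395 to 68568484 (UGT2B17, in exon 2), 69214633 to 69214722 (UGT2B11), 68816020 to 68816106 (UGT2B10) and 69280501 to 69280590 (UGT2B28).

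Over the whole coding region the family fell into 2 sequence groups. UGT2B15 and UGT2B17 were 96.5% identical. UGT2B11 was 97.0% identical to UGT2B28 and 95.0% identical to UGT2B10, and UGT2B10 and UGT2B28 were 94.3% identical. Between the groups identity was 84.4% to 85.7%. A single 150-base read, the length sequenced here, would match UGT2B15 and UGT2B17 equally in 4.74% of the possible positions along the UGT2B15 transcript and 4.03% of those along UGT2B17, with a longest shared run of 199 bases. For UGT2B11 the share was 7.92%, with matches to RP11-704M14.1 and to the pseudogene UGT2B25P, and for UGT2B10 and UGT2B28 it was 0%. That 0% depends on the length, since UGT2B10 and UGT2B11 shared an identical run of 149 bases. In windows of 75 bases the share was 11.9% for UGT2B10, 15.0% for UGT2B28 and 27.6% for UGT2B11. It was 17.9% for UGT2B15 and 15.3% for UGT2B17. The study does not state how reads with several matches or reads of opposite strands were counted. RP11-704M14.1 itself had 7 to 32 counts per library, against 1177 to 1681 for UGT2B11.

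The promoter table of RefSeq (GRCh38.p14) held 3 of the 5 genes, UGT2B10, UGT2B11 and UGT2B15, and not UGT2B17 or UGT2B28. The 250 bases before each start are shown. UGT2B10 and UGT2B11 rose and UGT2B15 fell in the libraries described below, and a link of these sequences to those changes was not tested. Capitals mark matches, on either strand, to 2 of the 5 motifs searched.
UGT2B10 promoter: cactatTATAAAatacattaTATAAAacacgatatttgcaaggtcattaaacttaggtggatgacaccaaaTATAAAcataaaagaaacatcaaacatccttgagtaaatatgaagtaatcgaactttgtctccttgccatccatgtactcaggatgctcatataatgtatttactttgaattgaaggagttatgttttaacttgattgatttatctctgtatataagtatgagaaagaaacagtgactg
UGT2B11 promoter: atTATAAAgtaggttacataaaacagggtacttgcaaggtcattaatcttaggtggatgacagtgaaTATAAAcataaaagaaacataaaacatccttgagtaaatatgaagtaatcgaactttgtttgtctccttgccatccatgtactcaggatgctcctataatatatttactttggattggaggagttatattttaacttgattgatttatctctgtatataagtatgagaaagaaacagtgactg
UGT2B15 promoter: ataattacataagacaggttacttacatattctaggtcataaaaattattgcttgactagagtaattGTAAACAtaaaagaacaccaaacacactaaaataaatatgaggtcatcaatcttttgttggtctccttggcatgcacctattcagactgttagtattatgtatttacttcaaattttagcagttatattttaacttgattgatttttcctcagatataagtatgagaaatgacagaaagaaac
These windows lie at chr4:68815744-68815993 (UGT2B10, plus strand), chr4:69214749-69214998 (UGT2B11, minus strand) and chr4:68670653-68670902 (UGT2B15, minus strand). The UGT2B10 and UGT2B11 windows were 93.1% identical to each other and 75.8% and 76.2% identical to that of UGT2B15. The UGT2B15 window held 1 match to the FOXA motif TGTTTNC, beginning 183 bases before the start on the strand opposite to the gene. UGT2B10 held 3 matches to the exact string TATAAA and UGT2B11 held 2, the nearest of these matches beginning 179 and 183 bases before the start. Close to the start, all 3 windows hold the run atataagtatgagaaa, which that string does not match. Whether this run acts as a TATA element was not tested. None of the windows held the AP-1 motif TGANTCA, the ETS motif CCGGAAGT or the HNF1 motif on either strand. Of all 35116 promoter windows of this length, 15.5% held the FOXA motif, 10.7% TATAAA, 6.57% the AP-1 motif, 3.42% the ETS motif and 0.117% the HNF1 motif.

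Library totals were 58267359 to 60985825 counts at 0 hours, 48760003 to 54083444 at 12 hours and 47016302 to 54605125 at 24 hours. All 5 UGT2B genes passed the filter on low counts, together with 19245 others. The cells carried their luminal prostate markers (FOLH1, HOXB13, KRT8, KRT18, KLK3 and TMPRSS2) at a summed 3921 to 4308 CPM (read counts scaled to library size, with sizes adjusted by the trimmed mean of M values). Of the marker lists for other cells, basal genes (KRT5, KRT14, TP63) summed to 0.0213 to 0.325 CPM and fibroblast genes to 24.6 to 28.8 CPM, mainly COL1A1. Immune and endothelial genes summed to 13.1 to 13.9 CPM at 0 hours, 8.60 to 9.82 at 12 hours and 7.12 to 8.04 at 24 hours, almost all of it VWF, while PTPRC, CD3E and PECAM1 had 0 to 5 counts in each library. Liver genes, from an organ that also expresses the UGT2B family, summed to 5.14 to 6.19, 4.30 to 5.13 and 3.13 to 3.60 CPM at the successive times, mainly ALB. Among the fibroblast genes, COL3A1, a fibrillar collagen, rose from 0.567 to 1.13 and 1.43 CPM (log2 fold change 0.98 ± 0.27, adjusted p = 0.009, and 1.32 ± 0.27, adjusted p = 0.00032), the 12-hour call being lost without 0 h replicate 2 (0.68, adjusted p = 0.0822), and LUM, a matrix proteoglycan, passed at 24 hours (0.56 ± 0.20, adjusted p = 0.0479) but not without any 1 of the 6 libraries compared (adjusted p = 0.063 to 0.166). COL1A1, at 24.6, 22.4 and 22.8 CPM, did not pass (-0.14 ± 0.056, adjusted p = 0.0891, and -0.11 ± 0.056, adjusted p = 0.192). PDGFRB, at 0.669, 0.787 and 0.872 CPM, did not pass either (0.23 ± 0.27, adjusted p = 0.626, and 0.38 ± 0.27, adjusted p = 0.36). COL1A2 and DCN had 0 to 5 counts per library. VWF fell at both times (-0.58 ± 0.078, adjusted p = 6.77e-07, and -0.83 ± 0.080, adjusted p = 3.07e-10). ALB fell at 24 hours (-0.92 ± 0.16, adjusted p = 2.74e-05), as did TTR with overlapping groups (-0.95 ± 0.30, adjusted p = 0.0215). APOA1 fell at 12 hours only (-1.26 ± 0.43, adjusted p = 0.0366). The part of these 3 lists in the UGT2B results was not tested. In RNA from whole wells, fewer cells of a kind and less RNA per cell cannot be told apart.

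Per kilobase of exon, which allows levels to be compared between genes, UGT2B15 and UGT2B17 stood far above the rest of the group. At 0 hours UGT2B15 had 84.0 ± 3.88 CPM per kb (SD, n = 3) and UGT2B17 79.7 ± 0.652, and their replicates were separated by less than 1 CPM per kb. UGT2B11 had 9.88 ± 0.159, UGT2B10 1.21 ± 0.130 and UGT2B28 0.988 ± 0.0631 CPM per kb. At 12 hours the UGT2B15 level (60.8 ± 1.11) and the UGT2B17 level (61.9 ± 1.25) overlapped, and at 24 hours UGT2B15 (72.4 ± 2.91) was above UGT2B17 (59.2 ± 0.449) in every replicate. UGT2B11 (10.5 and 12.9), UGT2B10 (2.12 and 2.76) and UGT2B28 (1.24 and 1.40 CPM per kb at 12 and 24 hours) kept this order at the later times. Within the pair of UGT2B15 and UGT2B17 the order depends on the length used. The summed exons had 2134 bases for UGT2B15 and 2572 for UGT2B17, whose transcript used here has 2481. In CPM, with no length applied, UGT2B17 was the higher of the pair at 0 hours (205 against 179) and 12 hours (159 against 130).

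After NRG1, the abundant androgen-conjugating pair fell and the 3 scarcer genes were higher. UGT2B15 and UGT2B17 were lower than at 0 hours at both later times, by 13.8% to 27.6%. UGT2B10 rose 1.75-fold at 12 hours and 2.27-fold at 24 hours. UGT2B11 rose by 24 hours, and UGT2B28 passed the test at 24 hours from a low count.

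UGT2B15 showed a fall and a partial return. Its level was 189, 173 and 177 CPM in the 0-hour libraries, 132, 128 and 129 CPM at 12 hours, and 162, 152 and 150 CPM at 24 hours. Every 12-hour library was below every 24-hour library, and every 24-hour library below every 0-hour library. The log2 fold change was -0.47 ± 0.036 (SE) at 12 hours, a fall of 27.6% (adjusted p = 2.56e-12). At 24 hours it was -0.21 ± 0.036 against 0 hours, a fall of 13.8% (adjusted p = 2.2e-05). Between 12 and 24 hours UGT2B15 rose by 19.1% (log2 fold change 0.25 ± 0.036, adjusted p = 1e-05).

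UGT2B17 fell and stayed low. Its 0-hour libraries had 204, 207 and 204 CPM, its 12-hour libraries 163, 158 and 157 CPM, and its 24-hour libraries 153, 153 and 151 CPM. The 3 time points did not overlap, and the later groups lay close together. The log2 fold change was -0.36 ± 0.032 at 12 hours, a fall of 22.3% (adjusted p = 4.38e-11), and -0.43 ± 0.032 at 24 hours, a fall of 25.8% (adjusted p = 3.65e-13). The difference between 24 and 12 hours was -0.066 ± 0.032 and did not pass the test (adjusted p = 0.249).

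UGT2B10 rose in steps. It had 3.13, 3.76 and 3.15 CPM at 0 hours, 5.76, 5.79 and 5.99 CPM at 12 hours, and 8.35, 7.10 and 7.39 CPM at 24 hours, from 184 to 392 counts per library. No library of an earlier time reached any library of a later one. The log2 fold change was 0.81 ± 0.11 at 12 hours (adjusted p = 6.72e-07) and 1.18 ± 0.11 at 24 hours (adjusted p = 6.2e-11). From 12 to 24 hours UGT2B10 rose by 30.1% (log2 fold change 0.38 ± 0.10, adjusted p = 0.0179). That last pass on the adjusted p was lost when 12 h replicate 1 was left out (0.37, adjusted p = 0.072), as it was for 12 h replicate 2 (0.37, adjusted p = 0.0707) and for 24 h replicate 1 (0.31, adjusted p = 0.116).

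UGT2B11 rose late. It had 23.6, 22.9 and 23.3 CPM at 0 hours, 25.0, 25.2 and 24.3 CPM at 12 hours, and 30.9, 30.9 and 29.3 CPM at 24 hours. The 12-hour libraries were all above the 0-hour ones, but by little. The log2 fold change at 12 hours was 0.094 ± 0.050, which did not pass the test (adjusted p = 0.214). At 24 hours it was 0.38 ± 0.050 against 0 hours (adjusted p = 2.07e-07) and 0.29 ± 0.050 against 12 hours (adjusted p = 0.000157), the former a rise of 30.5%.

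UGT2B28 was the scarcest, at 102 to 147 counts per library. It had 1.77, 1.76 and 1.97 CPM at 0 hours, 2.17, 2.21 and 2.52 CPM at 12 hours, and 2.39, 2.57 and 2.82 CPM at 24 hours. Both later groups lay above the 0-hour libraries, and they overlapped each other. The log2 fold change was 0.32 ± 0.16 at 12 hours (adjusted p = 0.173), 0.50 ± 0.16 at 24 hours (adjusted p = 0.0209) and 0.18 ± 0.16 between 24 and 12 hours (adjusted p = 0.611). The 24-hour pass on the adjusted p was lost when 0 h replicate 1 was left out (0.48, adjusted p = 0.0563), as it was for 0 h replicate 2 (0.47, adjusted p = 0.0646) and for 24 h replicate 3 (0.44, adjusted p = 0.0922).

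**Figure D1:**
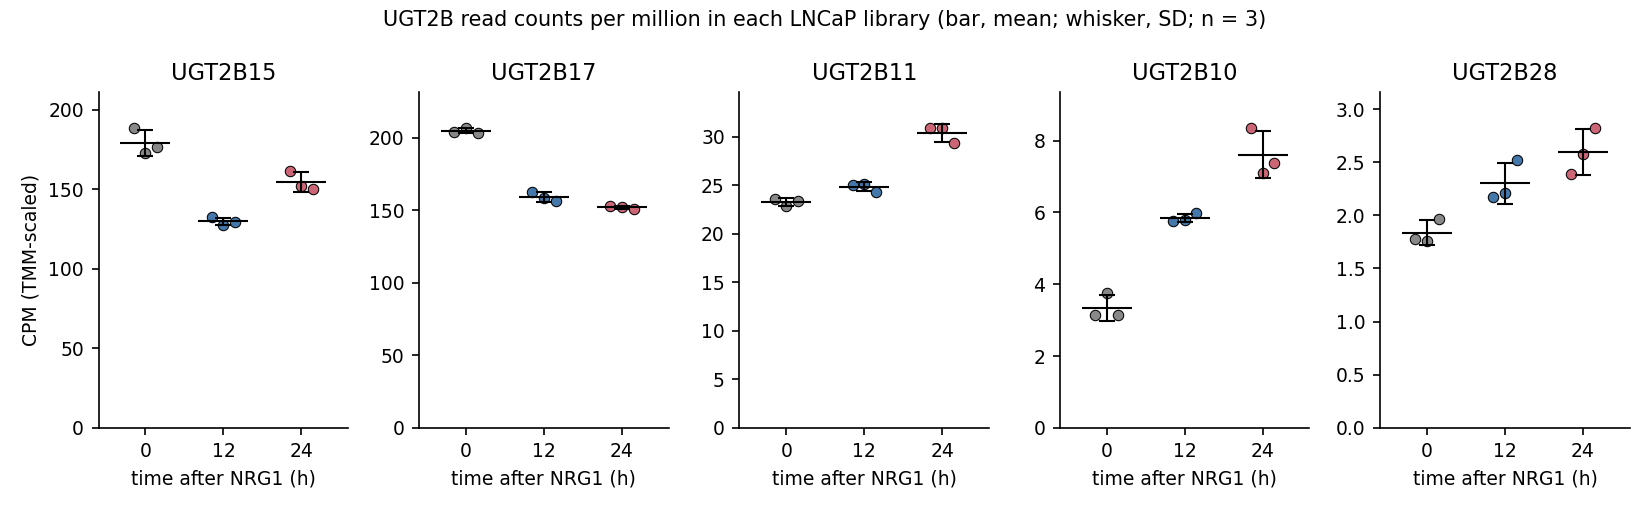
Each panel plots the TMM-scaled CPM of 1 UGT2B gene (vertical axis from 0, its own scale) in the 9 LNCaP libraries by time after NRG1 in hours. Points are libraries, wide bars are means and whiskers are SD (n = 3); UGT2B15 drops at 12 hours and partly returns, UGT2B17 stays low, and UGT2B10 climbs from 3.13 to 3.76 CPM up to 7.10 to 8.35 CPM.

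Counted over the family, 1 of 5 members (UGT2B10) was called at 12 hours, with a call defined as an adjusted p of at most 0.05 and a change of at least 1.5-fold. Of all 19250 genes tested, 2.37% were called in that comparison, 0.992% higher and 1.38% lower. On the adjusted p alone, 3 members passed at 12 hours, 1 higher and 2 lower, against 18.7% of all genes, 10.6% higher and 8.16% lower. At 24 hours against 0 hours 1 member was again called (UGT2B10, background 3.31%, of which 1.53% higher and 1.78% lower), and all 5 passed on the adjusted p, 3 higher and 2 lower (background 21.1%, of which 11.6% higher and 9.48% lower). Between 24 and 12 hours 0 members were called by edgeR or DESeq2 (background 0.452%, of which 0.249% higher and 0.203% lower), while UGT2B10, UGT2B11 and UGT2B15 passed on the adjusted p and were higher (background 6.08%, of which 3.03% higher and 3.05% lower). The comparisons of 12 and 24 hours with 0 hours share their 0-hour libraries.

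The median log2 fold change over the 5 genes was 0.094 at 12 hours, 0.38 at 24 hours and 0.25 between 24 and 12 hours, where the median of all tested genes was -0.0084, -0.0068 and 0.0011. These medians hide opposite directions. At 12 hours the members ran from -0.47 (UGT2B15) to 0.81 (UGT2B10), and at 24 hours from -0.43 (UGT2B17) to 1.18 (UGT2B10). The groups did not overlap for any of the 5 members in the comparisons with 0 hours, as was the case for 32.8% of all genes at 12 hours and 33.5% at 24 hours. In 1 test over the 3 times all 5 members passed (25.1% of all genes), with adjusted p from 1.79e-13 for UGT2B17 to 0.0486 for UGT2B28. Without any 1 of the 0 h and 12 h libraries, or without 24 h replicate 2 or 3, UGT2B28 did not pass that test (adjusted p = 0.0562 to 0.137).

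**Figure D2:**
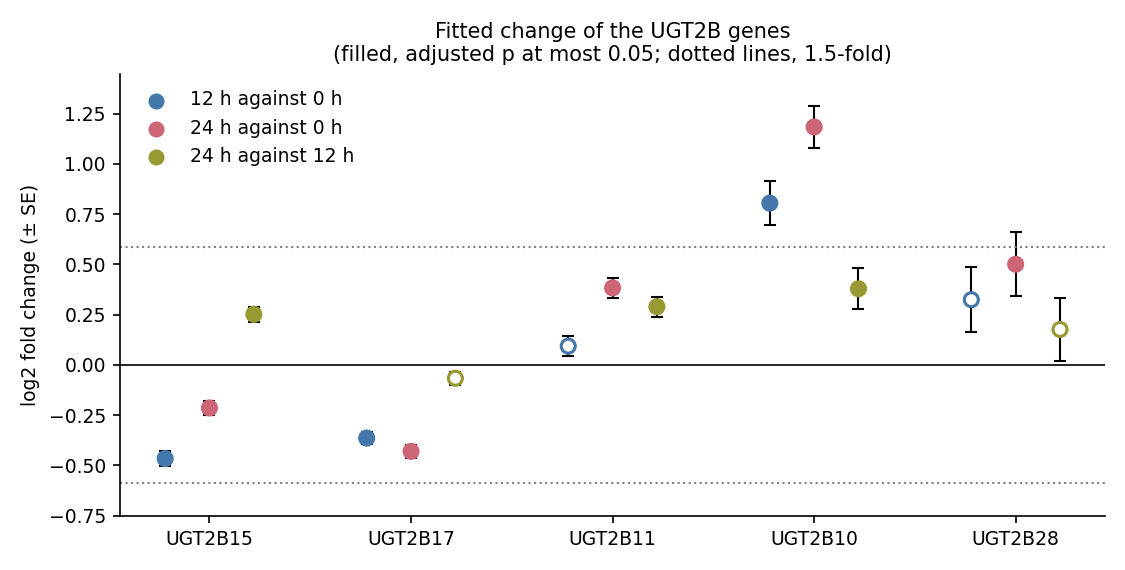
The fitted log2 fold change (vertical axis, whiskers are SE) of each UGT2B gene is plotted for each time against 0 h and for the later time against the earlier. Filled points have an adjusted p of at most 0.05 and dotted lines mark 1.5-fold; UGT2B10 alone lies beyond them, and UGT2B15 and UGT2B17 lie below 0 in both comparisons with 0 h.

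Summed, the family lost reads. The 5 genes together had 413 ± 7.49 CPM at 0 hours, 322 ± 5.29 at 12 hours and 347 ± 8.10 at 24 hours (SD, n = 3 each), and relative to 0 hours the sum fell by 22% at 12 hours and fell by 15.8% at 24 hours. UGT2B15 and UGT2B17 supplied 93.0% to 93.2% of these reads at 0 hours and 88.2% to 88.4% at 24 hours. The sum of that pair fell from 384 ± 7.43 CPM by 24.8% at 12 hours and by 20.2% at 24 hours. The sum of UGT2B10, UGT2B11 and UGT2B28, the other sequence group, was 28.5 ± 0.0626, 33.0 ± 0.190 and 40.6 ± 1.03 CPM, which was 15.9% and 42.6% above 0 hours. No 75-base or 150-base window of the UGT2B15 and UGT2B17 transcripts occurred in UGT2B10, UGT2B11 or UGT2B28. UGT2B10, UGT2B11 and UGT2B28 did share 75-base windows with other genes, among them UGT2B7 and the pseudogenes UGT2B24P, UGT2B25P and UGT2B27P, and the part of shared reads in these sums was not tested.

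The split among the genes changed with time. UGT2B17 took 49.7% ± 1.13 of the summed reads at 0 hours, 49.5% ± 0.283 at 12 hours and 43.8% ± 0.764 at 24 hours. UGT2B15 took 43.4% ± 1.23, 40.3% ± 0.293 and 44.5% ± 0.764, so that at 24 hours the 2 shares met. UGT2B11 took 5.64%, 7.71% and 8.75%, UGT2B10 0.812%, 1.82% and 2.19%, and UGT2B28 0.445%, 0.715% and 0.748%. The ratio of UGT2B15 to UGT2B17 counts was 0.923, 0.834 and 0.867 in the 0-hour libraries, 0.813, 0.806 and 0.826 at 12 hours, and 1.06, 0.996 and 0.995 at 24 hours. All 24-hour ratios were above all earlier ones. The ratio of UGT2B11 to UGT2B10 counts fell from 6.08 to 7.55 at 0 hours to 4.06 to 4.35 at 12 hours and 3.70 to 4.35 at 24 hours.

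**Figure D3:**
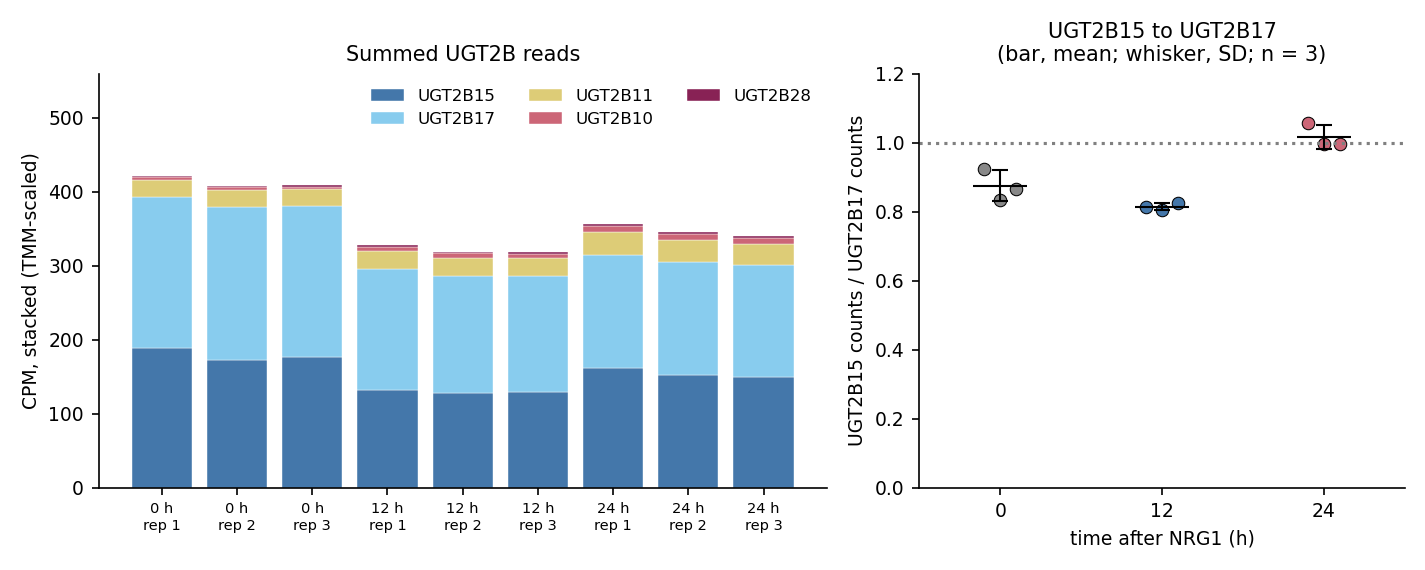
The left panel stacks the TMM-scaled CPM of the 5 UGT2B genes in each of the 9 libraries, and the right panel plots the ratio of UGT2B15 to UGT2B17 counts per library by time in hours (bars are means, whiskers SD, n = 3; dotted line, equal counts). The stacks are lowest at 12 hours, at 319 to 328 CPM, and the ratio is 0.995 to 1.06 at 24 hours against 0.806 to 0.923 before.

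Across the 9 libraries the members moved in different patterns, described here by Pearson's r of log2 CPM over libraries that share their time points. UGT2B10 ran against UGT2B17 (r = -0.961) and with UGT2B28 (0.873) and UGT2B11 (0.847). UGT2B15 and UGT2B17 had an r of 0.738, and UGT2B15 and UGT2B11 an r of -0.160. Outside the family, the genes closest to UGT2B10 were TNFRSF12A, the receptor for TWEAK (r = 0.990), CUEDC1 (0.989) and RBPMS, an RNA-binding protein (0.988). TNFRSF12A was at 12.3, 27.4 and 36.4 CPM at the successive times. Closest to UGT2B17 were PLPP1, a lipid phosphatase that androgen induces in LNCaP cells (r = 0.997), CITED2, a transcriptional coregulator (0.995), and the potassium channel gene KCNN2 (0.994), and PLPP1 was at 81.5, 54.5 and 50.0 CPM.

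The genes closest to UGT2B11 were NRP1, a semaphorin and VEGF coreceptor (r = 0.990), the trypsinogen gene PRSS2 (0.990) and MME, the membrane peptidase neprilysin (0.982), and NRP1 was at 262, 278 and 335 CPM. PRSS2 belongs to a family of near-identical copies, so its counts are uncertain. UGT2B15, with its fall and partial return, was closest to GMDS-DT (r = 0.978), ZYG11B (0.977) and MYLK, the myosin light chain kinase (0.977), and MYLK was at 9.06, 5.28 and 6.95 CPM. UGT2B28 was closest to MXD1, a MAX-binding repressor (r = 0.991), ABHD18 (0.986) and FBXO36 (0.969). Each r is the highest of many, over 9 libraries in 3 time groups.

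Of the other UGT genes listed, those tested passed no comparison, and the UGT2 genes among them were below 1 CPM at every time. UGT2B4 had 0.689, 0.372 and 0.341 CPM at the successive times and UGT2B7 0.345, 0.337 and 0.322, and neither passed any comparison (UGT2B4 at 24 hours, log2 fold change -1.01 ± 0.38, adjusted p = 0.0559). UGT2A1 and UGT2A3 had 0 to 2 counts per library. Of the 12 genes listed from the UGT1A, UGT3 and UGT8 families 6 were in the table, and of these only UGT8, which conjugates galactose to ceramide, passed the filter. UGT8 was at 5.70, 6.53 and 5.88 CPM and passed no comparison. UGT1A1, UGT1A6 and UGT1A10 had 0 to 4 counts per library, although exons shared among UGT1A genes make those counts uncertain.

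Of 7 genes listed for supply of the cosubstrate, 6 were tested. On the adjusted p, which 18.7% of all genes passed at 12 hours and 21.1% at 24 hours, 1 rose at each time and 0 fell. That gene was UGP2, which makes UDP-glucose (63.3 ± 2.22, 71.8 ± 1.10 and 71.3 ± 0.727 CPM; log2 fold change 0.18 ± 0.037, adjusted p = 0.000431 at 12 hours, and 0.17 ± 0.037, adjusted p = 0.000777 at 24 hours). UGDH, which oxidizes UDP-glucose to UDP-glucuronic acid, had 105, 102 and 105 CPM and did not pass (-0.043 ± 0.036 at 12 hours and 0.0025 ± 0.036 at 24 hours). The list median was 0.021 at 12 hours and 0.056 at 24 hours.

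Among genes for glucuronide hydrolysis and export, 4 of 6 were tested. On the adjusted p 1 rose at 12 hours, and 2 rose and 1 fell at 24 hours (all genes passing, 18.7% and 21.1%). ABCC4, an efflux transporter of steroid conjugates and other anions, rose from 143 ± 3.70 CPM to 188 ± 0.220 at 12 hours and 204 ± 2.95 at 24 hours (log2 fold change 0.39 ± 0.032, adjusted p = 8.67e-12, and 0.51 ± 0.032, adjusted p = 3.68e-15). ABCC1, a related exporter, rose at 24 hours (0.14 ± 0.037, adjusted p = 0.00602). GUSB, the lysosomal enzyme that removes glucuronic acid, fell at 24 hours (-0.15 ± 0.041, adjusted p = 0.00817). Leaving out 0 h replicate 2, leaving out 0 h replicate 3 and leaving out 24 h replicate 3 each raised the GUSB value above the threshold (-0.12 in each, adjusted p = 0.0507, 0.0743 and 0.0556). The list median was 0.15 at 12 hours and 0.28 at 24 hours.

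Of 12 genes for androgen formation, 6 were tested. On the adjusted p 1 rose and 1 fell at 12 hours, and 1 rose at 24 hours (all genes passing, 18.7% and 21.1%). SRD5A3, named for steroid reduction and needed for dolichol synthesis, rose at 12 hours (0.26 ± 0.070, adjusted p = 0.00672) and 24 hours (0.36 ± 0.069, adjusted p = 0.000174). Its 12-hour rise did not pass without 12 h replicate 3 (0.21, adjusted p = 0.0646). STS, the steroid sulfatase, fell at 12 hours (-0.30 ± 0.080, adjusted p = 0.00664) and was at -0.033 ± 0.079 at 24 hours (adjusted p = 0.827). SRD5A1, the steroid reductase that makes dihydrotestosterone, had 33.8, 35.3 and 34.9 CPM and did not pass. Of 14 genes for androgen oxidation, reduction and sulfation, 6 were tested, and 1 fell at 24 hours (all genes lower on the adjusted p, 9.48%). It was HSD17B11, a hydroxysteroid dehydrogenase (-0.30 ± 0.097, adjusted p = 0.0245). Its pass on the adjusted p was lost when 0 h replicate 2 was left out (-0.21, adjusted p = 0.173), as it was for 24 h replicate 1 (-0.29, adjusted p = 0.0637) and for 24 h replicate 2 (-0.28, adjusted p = 0.0835).

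Of 15 transcription factors known at UGT2B genes, 8 were tested. On the adjusted p 3 were higher and 3 lower at 12 hours, and 3 higher and 1 lower at 24 hours. Of all genes tested, 18.7% and 21.1% passed at these times. VDR, the vitamin D receptor, rose from 17.5 to 26.4 and 27.8 CPM (log2 fold change 0.59 ± 0.056, adjusted p = 3.09e-10, and 0.67 ± 0.056, adjusted p = 7.78e-12). AHR, the aryl hydrocarbon receptor, rose from 2.31 to 3.32 and 4.55 CPM (0.52 ± 0.13, adjusted p = 0.00476, and 0.98 ± 0.13, adjusted p = 3.88e-07). With the fold threshold, 1 of the 8 was called at 12 hours (VDR) and 2 at 24 hours (VDR and AHR), all higher. Of all genes tested, 0.992% and 1.53% were called higher at these times. NFE2L2, a factor of the oxidative stress response, rose (0.23 ± 0.039 and 0.20 ± 0.040), and PPARA, a nuclear receptor for fatty acids, fell (-0.22 ± 0.051 and -0.23 ± 0.051). FOXA1, a pioneer factor of prostate epithelium, was at 560, 527 and 531 CPM (-0.087 ± 0.030, adjusted p = 0.035 at 12 hours, and -0.077 ± 0.030, adjusted p = 0.0592 at 24 hours), and its 12-hour fall was lost without any 1 of the 6 libraries compared (adjusted p = 0.0552 to 0.174). POU2F1, an octamer-binding factor, was at 60.0, 52.4 and 58.6 CPM, and it fell at 12 hours (-0.20 ± 0.048, adjusted p = 0.00306) but did not pass the test at 24 hours (-0.035 ± 0.048, adjusted p = 0.689). The list median was 0.094 at 12 hours and 0.059 at 24 hours, against -0.0084 and -0.0068 over all genes tested.

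Genes that androgen induces in LNCaP cells did not move as a block in the comparisons with 0 hours. All 4 genes reported from the list were tested. On the adjusted p 3 were higher and 1 lower at 12 hours, and 1 higher and 2 lower at 24 hours. All 4 were lower at 24 than at 12 hours. Of all genes tested, 18.7%, 21.1% and 6.08% passed in these 3 comparisons. KLK3, the gene for prostate-specific antigen, rose from 994 ± 20.1 CPM to 1328 ± 17.5 at 12 hours and 1183 ± 62.4 at 24 hours (0.42 ± 0.033, adjusted p = 4.34e-12, and 0.25 ± 0.033, adjusted p = 3.23e-07). TMPRSS2, a membrane protease, fell from 48.2 ± 0.992 CPM to 40.6 ± 1.16 and 32.4 ± 0.796 (-0.25 ± 0.043, adjusted p = 3.97e-05, and -0.57 ± 0.043, adjusted p = 8.84e-13). KLK2, a related kallikrein, was at 242, 261 and 207 CPM (0.11 ± 0.036 at 12 hours, adjusted p = 0.0273, and -0.22 ± 0.036 at 24 hours, adjusted p = 1.42e-05). The small KLK2 rise at 12 hours was lost when either 0 h replicate 1 or 2, or either 12 h replicate 1 or 3, was left out (0.097 to 0.11, adjusted p = 0.076 to 0.11). FKBP5, a co-chaperone of HSP90, was at 49.9, 58.6 and 53.4 CPM, and its fall from 12 to 24 hours (-0.13 ± 0.041, adjusted p = 0.0422) was lost without any 1 of the 6 libraries compared (adjusted p = 0.0692 to 0.198).

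**Figure D4:**
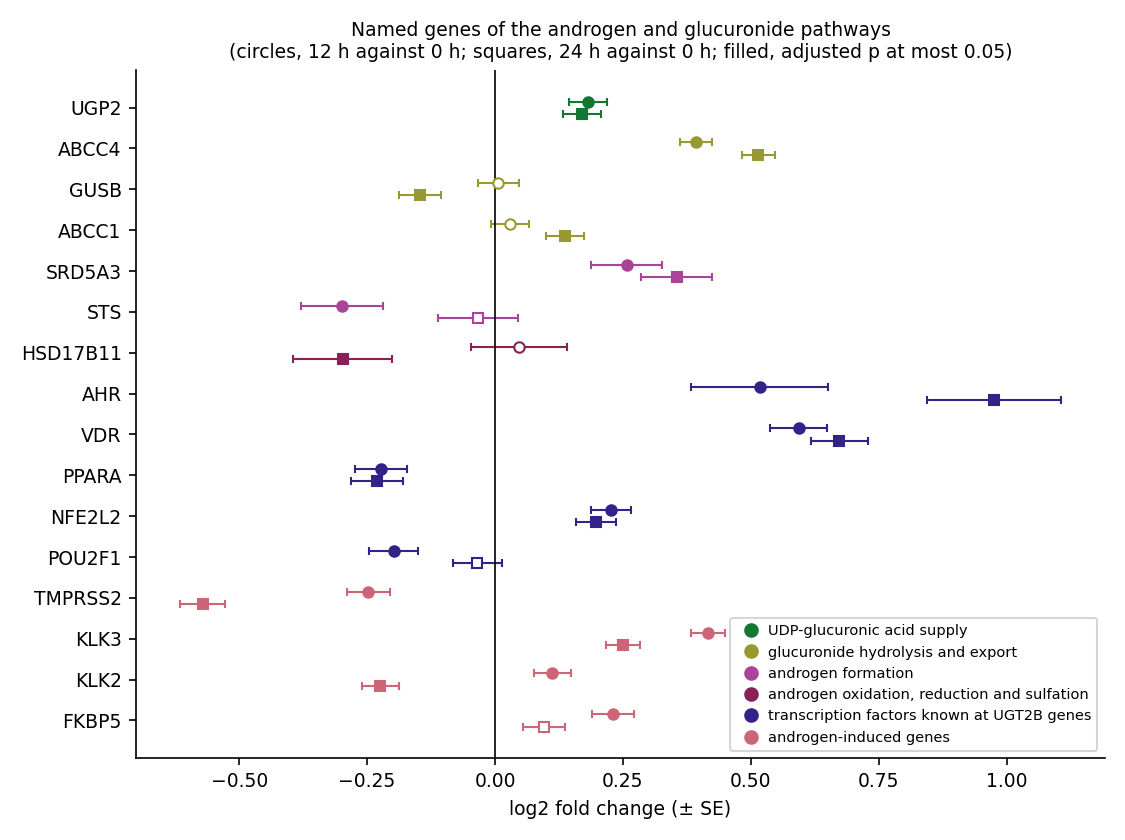
Fitted log2 fold changes (horizontal axis, whiskers are SE) are plotted for the named genes of the androgen and glucuronide lists, as circles for 12 h against 0 h and squares for 24 h against 0 h, filled where the adjusted p is at most 0.05 and coloured by list. TMPRSS2 reaches -0.57 at 24 h on the left, while AHR reaches 0.98, VDR 0.67 and ABCC4 0.51 on the right.

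The table held 50 other genes within 1 Mb of a member, of which 13 were tested. On the adjusted p 2 rose and 0 fell at each time, and 0 were called. Of all genes tested, 18.7% passed on the adjusted p at 12 hours and 21.1% at 24 hours. Calls were 2.37% and 3.31% of all genes, so 13 genes are too few to set this region apart. UBA6, a ubiquitin-activating enzyme, rose from 70.2 to 78.1 and 81.1 CPM (0.15 ± 0.036, adjusted p = 0.0017, and 0.21 ± 0.036, adjusted p = 3.06e-05). TMPRSS11E, a membrane serine protease gene at 68447463 to 68497604, separated from UGT2B17 by the pseudogene UGT2B29P, was at 4.56, 6.57 and 6.13 CPM (0.53 ± 0.10, adjusted p = 0.00023, and 0.43 ± 0.10, adjusted p = 0.00242). The median log2 fold change of the 13 neighbours was 0.13 at 12 hours and 0.069 at 24 hours.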

How the data were processed

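Counts per gene from RNA-Seq of 9 LNCaP libraries were used. Per the study's methods and processing notes, the authors prepared TruSeq mRNA libraries, sequenced 150-base read pairs, trimmed them with Cutadapt 4.5, aligned them with STAR 2.7.11a to GRCh38.p13 and counted them with featureCounts 2.0.2 on GENCODE 38. The deposited values are raw counts, 1 column per library. The table's 14 empty columns were not used. The methods state that an LNCaP time 0 replicate was excluded for quality, without naming the treatment. The figure legends give 3 replicates for NRG1 and 2 to 3 for the protein ASPN, whose libraries were not analysed here. Each of the 3 libraries labelled 0 h entered the fits. Depth was 47016302 to 60985825 counts per library, and precision from depth covers counting error only. The study's methods mention no molecular identifiers.

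Groups and replicate numbers came from the sample titles. Counts were fitted with edgeR 4.0.16 in R 4.3.3 (filterByExpr, TMM scaling, robust quasi-likelihood F test, all 9 libraries, no covariate). Adjusted p-values are Benjamini-Hochberg values over 19250 genes per comparison, a call also needed a fold change of at least 1.5, and SE was derived from the F statistic. Replicates correlated at r = 0.991 to 0.993 across genes, none agreed within sampling noise (chi-square per degree of freedom 3.06 to 8.34), and the common BCV (biological coefficient of variation) was 4.07%. CPM per kb used the summed exon length of gene models on GRCh38 from a later GENCODE release than the one used for counting. Identity and shared windows came from alignments with Biopython 1.88 and exact matching among all transcripts. The alternatives were DESeq2 1.42.0, RLE size factors, no scaling factor, 2 other filters, a fit of the 6 libraries compared alone, a replicate block, thinning to the smallest total, leaving out mitochondrially encoded genes, paralogs summed, other fold thresholds, and each library left out. The fit was also run on simulated counts, which held no reads shared among paralogs. That run cannot bear on the split of reads here, and its outcome is not reported here.

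The members and gene lists were chosen with earlier results of these data known, and the lists were written from general knowledge. Named genes were the members and, per list, up to 5 genes with a mean CPM of at least 1 and an adjusted p of at most 0.05 in any comparison, by largest change. For each member the 3 genes of average log2 CPM of at least 2 with the highest Pearson r over the 9 libraries were also named, as were genes called within 1 Mb. Genes named outside this rule (UGT2B4, UGT2B7, UGT8, FOXA1, COL1A1, COL3A1, LUM, PDGFRB, VWF, ALB, TTR, APOA1, UGDH, SRD5A1, UBA6, TMPRSS11E and those at 0 or few counts) were chosen after their values were seen. Of the lists' genes, UGT2A2, HSD17B3, CYP7B1, SULT2A1, ESR1 and 6 UGT1A genes were not analysed here. Some other genes of the lists are not reported here.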

Additional observations from a re-analysis of the deposited data

Results flagged for a closer look

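Effects at 12 and 24 h differed, by the direct edgeR test of 24 h against 12 h (adjusted p at most 0.05, Benjamini-Hochberg), for 3 of the 5 UGT2B genes: the log2 difference was 0.38 for UGT2B10 (adjusted p = 0.0179), 0.29 for UGT2B11 (adjusted p = 0.000157) and 0.25 for UGT2B15 (adjusted p = 1e-05). UGT2B10 and UGT2B11 moved further from their 0 h level between those times, and UGT2B15 moved back toward it. The UGT2B10 difference was 0.31 to 0.43 with 1 library left out and was lost when either of 12 h replicates 1 and 2, or 24 h replicate 1, was left out.

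Among the pathway genes the same test gave 0.12 for ABCC4, -0.15 for GUSB, 0.27 for STS, -0.34 for HSD17B11, 0.46 for AHR and 0.16 for POU2F1. With 1 library left out, ABCC4 was lost without any 12 h replicate or 24 h replicate 2 (adjusted p = 0.056 to 0.0897), GUSB without 12 h replicates 2 or 3 or 24 h replicate 3 (adjusted p = 0.0507 to 0.118), STS without any 12 h replicate or 24 h replicates 1 or 3 (adjusted p = 0.0583 to 0.246), HSD17B11 without 12 h replicates 1 or 2 or any 24 h replicate (adjusted p = 0.0567 to 0.160), AHR without any 12 h replicate or 24 h replicate 2 (adjusted p = 0.0538 to 0.160), and POU2F1 without 12 h replicates 1 or 2 or 24 h replicates 1 or 3 (adjusted p = 0.084 to 0.246). The 4 androgen-induced genes reported were lower at 24 h than at 12 h, with -0.32 for TMPRSS2, -0.17 for KLK3, -0.34 for KLK2 and -0.13 for FKBP5, of which FKBP5 was lost without any 1 of the 6 libraries (adjusted p = 0.0692 to 0.198).

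Of the genes whose levels ran closest to a UGT2B gene, and were chosen for that, the difference was 0.41 for TNFRSF12A, 0.21 for CUEDC1, 0.38 for RBPMS, 0.27 for NRP1, 1.35 for PRSS2, 0.31 for MME, 0.27 for GMDS-DT, 0.40 for MYLK, -0.18 for CITED2 and -0.43 for KCNN2. CUEDC1 was lost without 24 h replicate 1 (adjusted p = 0.057) and GMDS-DT without any 1 of the 6 libraries (adjusted p = 0.0599 to 0.134).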

How the results depend on the processing

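In the 15 comparisons of a UGT2B gene, every alternative with a test kept the direction. UGT2B28 at 24 h against 0 h (0.44 to 0.56 with 1 library left out) and UGT2B10 at 24 h against 12 h (0.31 to 0.43) each lost the adjusted p in 3 of 15 alternatives, all of them a library left out, and the other 13 comparisons kept their side of the threshold. UGT2B28 also lost the test over the 3 times in 11 of 17 alternatives, which were added after seeing the data (adjusted p = 0.0517 to 0.137). Summing paralogs, a value with no test, gave 0.21, 0.51 and 0.30 for UGT2B10, UGT2B11 and UGT2B28 and -0.41, -0.32 and 0.085 for UGT2B15 and UGT2B17 at 12 h, at 24 h and between them. With no fold threshold 3, 5 and 3 members and 3605, 4065 and 1171 genes passed, and with a fold of at least 2 there were 0 members at 12 h and 179, 266 and 34 genes. The 24 h against 12 h count of all genes was 55 to 93 with 1 library left out, the lowest without 12 h replicate 2. The replicate numbers did not pair the samples (correlation of deviations -0.0367 to 0.0295). With the replicate block 448, 621 and 92 genes were called, and the block changed no call of a member in the 3 comparisons (UGT2B10 0.81, 1.18 and 0.38), although UGT2B28 had an adjusted p of 0.0536 over the 3 times. Other genes turned direction at small values. With no scaling factor GUSB at 12 h was -0.0036, and at 24 h against 12 h UGP2 was 0.00043 and PPARA 0.0036. With 1 library left out the range was -0.034 to 0.032 for GUSB and -0.0081 to 0.063 for ABCC1 at 12 h, -0.10 to 0.029 for STS and -0.073 to 0.026 for POU2F1 at 24 h, and -0.019 to 0.0023 for UGP2 and -0.034 to 0.027 for PPARA at 24 h against 12 h. Depth limits UGT2B28 and UGT2B10 most, at 102 to 147 and 184 to 392 counts per library.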
